A study of Arabidopsis thaliana with 3 samples.

Results

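The regions described here are ChIP-seq regions of AtSDR4L whose summit, the base of strongest signal, lay just inside a protein-coding gene, at most 300 bp from one of its ends. They were taken from the authors' deposited table of regions matched between the replicates, without a limit on repeatability. Of its 1776 regions on chromosomes 1 to 5, 398 met this rule (22.4%, exact binomial 95% interval 20.5 to 24.4). They lay near the ends of 405 of 27432 coding genes, since 9 summits counted for a pair of genes and 2 genes held 2 regions each. Binding was measured in whole Arabidopsis thaliana seedlings of a line carrying an estradiol-inducible, HA-tagged AtSDR4L, 4 days from imbibition. Inducer (β-estradiol, 1 µM) was given to 2 samples that the series' design text calls biological replicates. The control was 1 library from seedlings of the same line grown without the inducer, precipitated with the same anti-HA antibody. The tagged protein came from an inducible transgene and not from its own promoter, and whole seedlings mix many tissues, so the cells that carry each signal were not resolved. Fold enrichment is the authors' value at the peak summit over that control, given per replicate. The files hold no read counts, so depth is unknown.

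AtSDR4L is an Arabidopsis relative of the rice seed dormancy factor SDR4, and is known for its part in shutting down the seed maturation programme as a seedling establishes itself. The base pairs just inside a gene can belong to either end of the transcript. At its start they hold the transcription start site, the untranslated leader and the nucleosome that follows the promoter, and at its far end the trailer and the site of polyadenylation. In the compact Arabidopsis genome the end of one gene is often close to the promoter of the next. The gene table used here gives spans without strand, so start and far end cannot be told apart and ends are named by coordinate. No sequence was used here, so none is shown.

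Matched summits inside genes were gathered near the ends. Of 690 matched summits inside coding gene spans, 398 (57.7%) lay at most 300 bp from an end, while such bases made up 24.5% of all bases in the spans. That is 25.2 regions per Mb of near-end bases, against 6.00 per Mb of bases deeper inside genes. Counted in steps of 100 bp, there were 39.5 summits per Mb in the last step outside genes, 28.2 in the first step inside, 24.7 in the second, 22.9 in the third and 12.2 in the fourth. From 500 to 1000 bp inside, the density ran between 3.21 and 4.60. The highest density, 46.3, lay 101 to 200 bp outside genes. Among all matched regions, the summits inside gene ends thus form the inner slope of a peak that stands outside genes. At an irreproducible discovery rate (IDR, explained below) of at most 0.05, the density was 4.02 in the last step outside. In the first 3 steps inside it was nearly flat at 1.12, 0.949 and 0.977, from 6, 5 and 5 summits. The median distance of the 398 summits from the gene end was 138 bp, with quartiles of 66.2 and 214 bp.

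**Figure D1:**
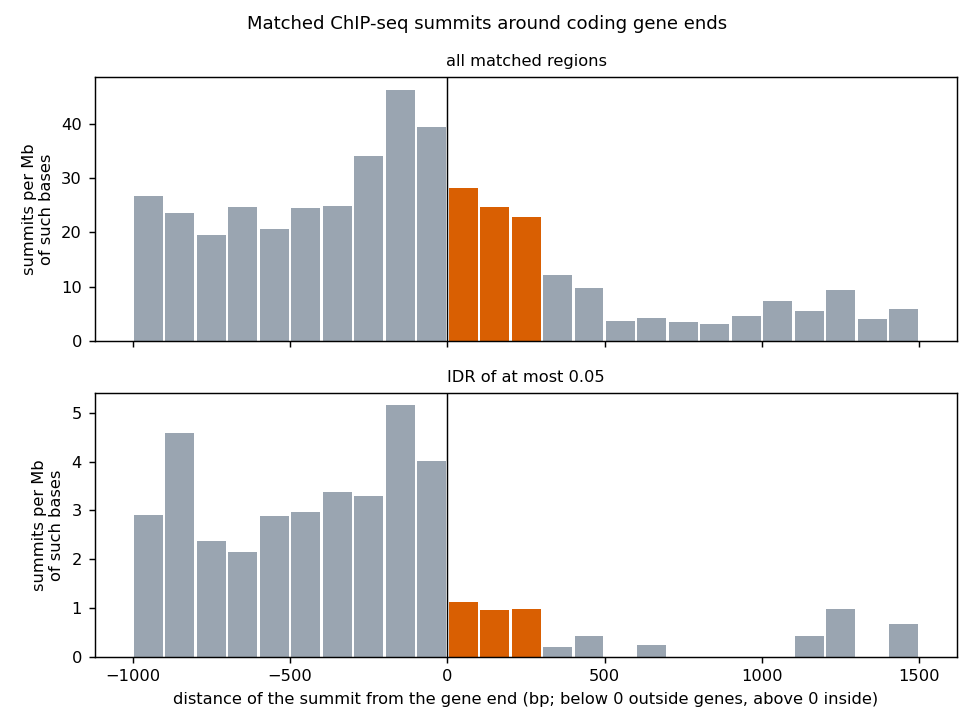
Matched summits per Mb of bases at each distance from the nearest coding gene end (x axis in bp, below 0 outside genes, above 0 inside, bars of 100 bp), for all matched regions (top) and for those with an IDR of at most 0.05 (bottom). Orange bars mark the 3 steps inside gene ends, at 28.2, 24.7 and 22.9 per Mb in the top panel and 1.12, 0.949 and 0.977 in the bottom one.

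Median enrichment at these regions was lower than at regions outside genes and higher than deep inside them. The fold in replicate 1 ran from 1.20 to 4.82 with a median of 1.78. In replicate 2 it ran from 1.12 to 3.72 with a median of 1.61. Summits outside genes and at most 1000 bp from one had medians of 2.09 and 1.80, and those farther out had 2.53 and 1.99. The 292 summits deeper inside genes had the lowest medians, 1.62 and 1.58. The same order of the 4 classes was thus seen in each replicate. Because regions are not replicates of a condition and both replicates share 1 control, this order is a description and was not tested.

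**Figure D2:**
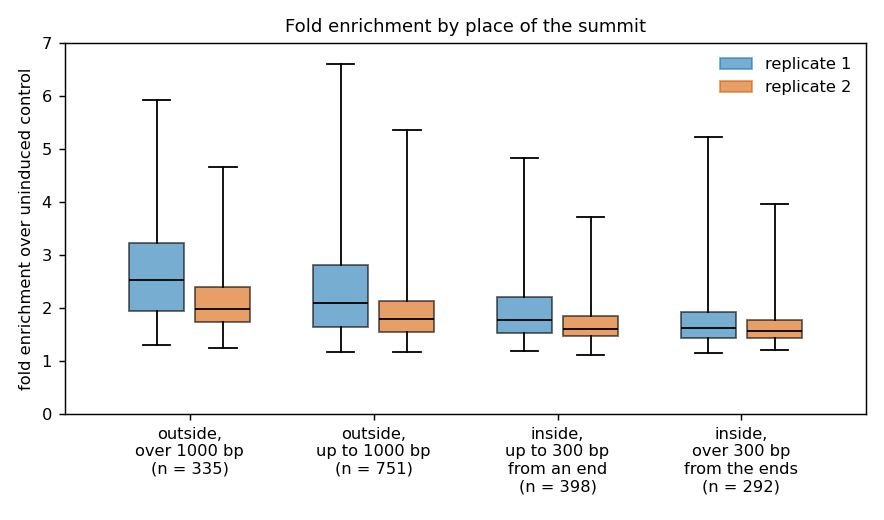
Fold enrichment over the uninduced control (y axis) of matched regions by the place of the summit (x axis), in replicate 1 (blue) and replicate 2 (orange). Boxes span the quartiles, lines inside them are medians, and whiskers reach the lowest and highest region; the near-end class has medians of 1.78 and 1.61, between those of the outside classes and of the deep class.

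Few of the regions were repeatable by the authors' own measure. The irreproducible discovery rate (IDR) ranks how repeatably a region was found in both lists, with low values for repeatable regions and 0.649 as the highest value in the authors' deposited table. An IDR of at most 0.05 was reached by 16 of the 398 (4.02%), where 10.2% of all nuclear matched regions reached it. At a limit of 0.1 the count was 31 (7.79%, against 16.9% of all). The share at 0.05 was 2.74% for summits deeper inside genes, 11.5% for those up to 1000 bp outside and 21.5% for those farther out. The highest IDR of the table was held by 190 of the 398 regions (47.7%), against 36.1% of all. In both replicates −log10 q reached at least 5 at 106 regions (26.6%, against 39.1% of all). The paired peaks covered at least 50% of each other at 228 regions (57.3%, against 63.1% of all).

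The 16 regions with an IDR of at most 0.05 are given here one by one, starting with a pair of related genes. LNK3 (AT3G12320) and LNK4 (AT5G06980) belong to a small family of coactivators that work with the morning MYB factors of the clock. The region at LNK3, chromosome 3: 3923101-3923783, showed 3.86-fold enrichment in replicate 1 and 3.12-fold in replicate 2, an IDR of 0.00446 and a summit 36 bp inside the gene. The region at LNK4, chromosome 5: 2167013-2167678, had 4.37 and 3.28, with an IDR of 0.00505 and the highest mean log2 fold of all 398. Its matched summit lay 264 bp inside the gene, and the summit of the replicate 2 peak lay at 302 bp, just past the limit. Coordinates are 1-based on TAIR10.

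CNX1, which encodes the endoplasmic reticulum chaperone calnexin, had a region at chromosome 5: 24829483-24830041 with 3.39 and 3.72 and an IDR of 0.0146. Replicate 2 was the higher one here, as it was in 1 other of the 16, AT1G75180 at chromosome 1: 28218387-28218901, with 3.11 and 3.41. WRKY7, a gene of the WRKY transcription factor family, had the highest replicate 1 fold of the 398, 4.82, but 2.30 in replicate 2, at chromosome 4: 12571507-12572200 (IDR 0.0239). HIPP25, a heavy metal-associated isoprenylated protein gene, had 4.29 and 2.44 at chromosome 4: 16686184-16687272 (IDR 0.0255). These folds were closer at CNX1 and AT1G75180 than at WRKY7 and HIPP25, where replicate 1 stood well above replicate 2.

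HVA22D, an abscisic acid- and stress-responsive gene, had 3.94 and 2.21 at chromosome 4: 12828666-12829566 (IDR 0.0389). PAP10, a purple acid phosphatase induced by phosphate starvation, had 3.53 and 2.45 at chromosome 2: 7122658-7123255 (IDR 0.0406). RPA1A, a subunit of the single-stranded DNA binding replication protein A, had only 1.91 and 1.76 at chromosome 2: 2587185-2587645, yet an IDR of 0.0382. It had the lowest folds of the 16, and the gene beyond that end is PSBX, a small subunit of photosystem II.

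The lowest IDR of all, 0.00233, belonged to AT5G01800 at chromosome 5: 308748-309490, with folds of 4.13 and 2.79. AT5G09620 at chromosome 5: 2985145-2985803 followed the LNK genes with 3.78 and 2.88 (IDR 0.00906). AT3G47610 (3.94 and 2.58), AT4G36170 (3.02 and 2.98), AT3G14067 (3.22 and 2.16), AT5G61997 (2.84 and 2.22) and AT2G46810 (3.08 and 2.89) completed the 16. AT5G61997 has a span of 120 bp, the shortest of the genes holding a region, so its region of 1085 bp reached past both ends. The 10 regions of lowest IDR and the 10 of highest mean log2 fold were the same 10. In 15 of the 16 the summit of each replicate's own peak also lay inside a gene within 300 bp of an end, LNK4 being the exception.

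**Figure D3:**
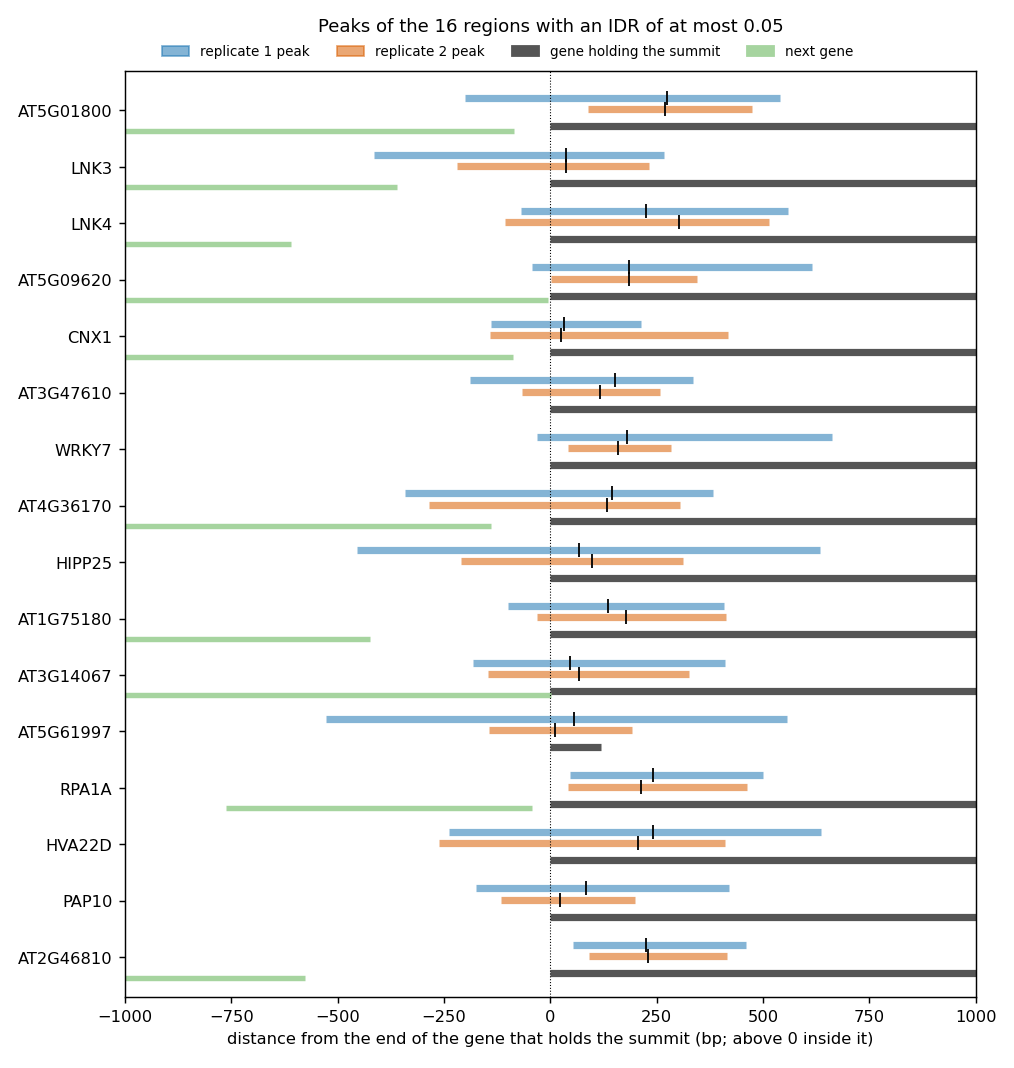
Peaks of the 16 regions with an IDR of at most 0.05, in order of IDR from the top, on an x axis of distance in bp from the gene end (above 0 inside the gene; cut off at 1000 bp on both sides). Blue and orange bars are the peaks of replicates 1 and 2 with their summits as black ticks, grey bars are the genes holding the summit and green bars the next coding gene; at LNK3 the ticks lie 37 and 36 bp inside the gene.

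**Figure D4:**
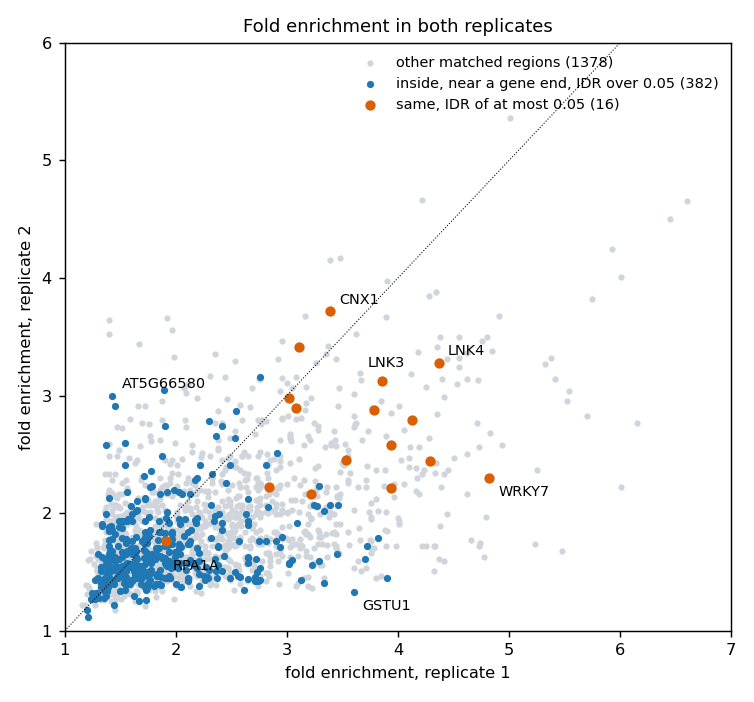
Fold enrichment in replicate 2 (y axis) against replicate 1 (x axis) for the 382 regions near gene ends with an IDR over 0.05 (blue), the 16 at or below it (orange) and the 1378 other matched regions (grey), with a dotted line of equal fold. Most blue points sit below 2 on both axes, around medians of 1.78 and 1.61 for the class, and RPA1A is the orange point among them.

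The replicates ranked these regions alike only in part. The fold was higher in replicate 1 at 252 of the 398 regions (63.3%, against 67.0% of all matched regions), and the median log2 ratio of replicate 2 to replicate 1 was −0.11. Across the 398 regions the folds had a Spearman correlation of 0.34, where all 1776 matched regions pooled had 0.50. Within the other classes it was 0.45 deeper inside genes, 0.44 up to 1000 bp outside and 0.47 farther out. This is a description over regions of the same libraries divided by the same control. GSTU1, a glutathione transferase gene, fell furthest below equality, with 3.60 in replicate 1 and 1.33 in replicate 2. BPS2 had 3.90 and 1.45, and AT2G30990 had 3.33 and 1.41. The opposite held at AT5G66580, with 1.43 and 3.00, at F8H, a glycosyltransferase gene, with 1.45 and 2.91, and at AT1G22850, with 1.37 and 2.58. None of these 6 regions had an IDR below 0.444, the value at AT2G30990. Each fold was read at that replicate's own summit, and at these 6 regions the replicates' summits lay apart. From the gene end they lay at −76 and 936 bp at GSTU1, and at 1127 and 105 bp at AT5G66580 (above 0 inside the gene). The paired folds there need not describe the same site.

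Most of the regions straddled the gene end. The interval reached past the end nearest to the summit at 350 regions (87.9%) and stayed inside at 48 (12.1%). The median width was 614 bp, against 618 bp for all matched regions and 706 bp for those deeper inside genes. Because the rule keeps summits at most 300 bp from an end, intervals of this width mostly reach past it. The 87.9% therefore follows largely from the rule and is not a separate result. Folds were slightly higher close to the end, with medians of 1.92 and 1.65 for the 151 summits up to 100 bp inside, 1.72 and 1.60 for the 131 at 101 to 200 bp, and 1.73 and 1.57 for the 116 at 201 to 300 bp. The 16 regions of lowest IDR were spread over these steps as 6, 5 and 5. Just inside the limit, HAG1 (298 bp) had folds of 1.84 and 1.77, and AT5G40340 (299 bp) had 1.65 and 1.54. Just outside it, AT2G30720 (301 bp) had 1.43 and 1.93, and RHA2A (302 bp) had 2.09 and 1.73.

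The spacing of the genes involved was close to that of all coding genes. The gap from that end to the next coding gene was up to 300 bp at 110 regions (27.6%, against 23.6% of all coding gene ends), 301 to 1000 bp at 85 (21.4%, against 23.1%) and over 1000 bp at 156 (39.2%, against 40.4%). The spans overlapped at 47 (11.8%, against 7116 of 54854 ends in all). Regions at overlapping spans had medians of 1.54 and 1.65, those with a gap over 1000 bp 1.91 and 1.61. The genes had a median span of 2351 bp, against 2078 bp for all coding genes. Among the 398, 13 summits lay in 2 coding spans at once, with 0 at an IDR of at most 0.05. The strongest of these lay where WAKL2 and WAKL1, neighbouring wall-associated kinase-like genes, overlap, with 2.96 and 1.80. AT1G65541 inside LETM2 (1.92 and 2.01) and AT1G80315 inside MOT2 (2.04 and 1.65) followed. WAKL genes stand in a tandem cluster of similar copies, and how reads mapping to several places were treated is not given in the sources used here.

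By coordinate the regions were evenly divided, with 200 at the lower-coordinate end and 198 at the higher one. The 16 regions with an IDR of at most 0.05 were not, with 3 at lower and 13 at higher ends (18.8% lower). Summits deeper inside genes at the same IDR limit had 4 nearer the lower and 4 nearer the higher end. Regions of the same libraries are not independent replicates, so no interval is given for this split. With the summit of the replicate 1 peak the counts were 3 and 13, with that of replicate 2 they were 2 and 13, and at an IDR of at most 0.1 they were 9 and 22. These counts were not tested, and which of these ends are gene starts was not analysed here.

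Of the first 10 lists, those of the photosynthetic apparatus had the most genes here, chiefly as the gene on the other side of the end. These lists were made before the member genes were seen, but with earlier results of these data known. Their counts are therefore not independent evidence. Photosystem subunits and electron carriers encoded in the nucleus are made in quantity in greening seedlings and imported into the chloroplast. Of 27 such genes, 10 (37.0%) were the next gene beyond the end and at most 1000 bp from the summit, where 0.773% of all coding genes were. A further 2 (7.41%, against 1.48% of all coding genes) held the summit themselves. Of the 21 light-harvesting antenna genes, 3 lay across the end (14.3%) and 1 held a summit (4.76%). Counting matched regions of any class within 1000 bp, 20 of the 27 genes and 11 of the 21 antenna genes had one, against 7.09% of all coding genes. With a limit of 150 bp in place of 300 bp, the photosystem and electron transport genes across the end fell from 10 to 6 and the antenna genes from 3 to 1. No test was run on these counts.

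At these 13 regions across from a photosynthesis gene the matched summit lay 39 to 374 bp from it (median 172 bp). Folds ran from 1.29 to 2.35 in replicate 1 (median 1.83) and from 1.32 to 2.41 in replicate 2 (median 1.70), while all 213 regions with a coding gene beyond the end and at most 1000 bp from the summit had medians of 1.72 and 1.61. Those 213 summits lay farther from that gene, at a median of 264 bp. An IDR of at most 0.1 was reached by 4 of the 13, against 8.92% of the 213 and 16.9% of all matched regions. PSAG, a photosystem I subunit, lay across from a region in AT1G55660 at chromosome 1: 20802048-20802534 with 2.35 and 1.98 (IDR 0.0762). PSAL, another photosystem I subunit, lay across from a region in AT4G12810 at chromosome 4: 7522626-7523198 with 2.32 and 2.07 (IDR 0.0899). FED A, a leaf ferredoxin gene, lay across from one in IRT3, a metal transporter gene, at chromosome 1: 22445383-22445823 with 1.60 and 1.67 (IDR 0.0886). PSBX beside RPA1A, given above, was the one at 0.05. These 4 were among the 31 of the 398 regions with an IDR of at most 0.1, and replicate 1 had the higher fold in all but the FED A region.

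Both PSAD genes, which encode the ferredoxin-docking subunit of photosystem I, were among the 13. PSAD-1 lay across from AT4G02760 with 2.03 and 1.70, and PSAD-2 across from AT1G03140 with 1.54 and 2.41. The other photosystem genes were PSAO across from DCP1 (1.90 and 1.62), PSBW across from AT2G30560 (1.65 and 1.51), PSAE-1 across from AT4G28740 (1.33 and 1.54) and PSBY across from KCR1 (1.29 and 1.32). The antenna genes were LHCB6 across from AT1G15810 (2.12 and 1.74), Lhca6 across from AT1G19160 (1.65 and 2.10) and CAB1 across from NRPA2 (1.83 and 1.47). CAB1 stands in a cluster of near-identical antenna genes, so its reads may be shared with its copies. In 9 of the 13 both replicates' own summits fell in the near-end class, and CAB1, PSAE-1, PSBY and PSAG were the exceptions. At CAB1 the called summits lay at −1153 and −829 bp from the end of NRPA2 (below 0 outside it). At PSBY the replicate 1 summit lay 987 bp inside KCR1. The distances above are those of matched summits and do not hold for these called ones. The genes holding a summit themselves were PSAF (1.88 and 2.49), PSBP-1 (1.72 and 2.12) and LHCA1 (1.90 and 2.74). All 3 were higher in replicate 2, and their IDRs ran from 0.350 to 0.363.

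**Figure D5:**
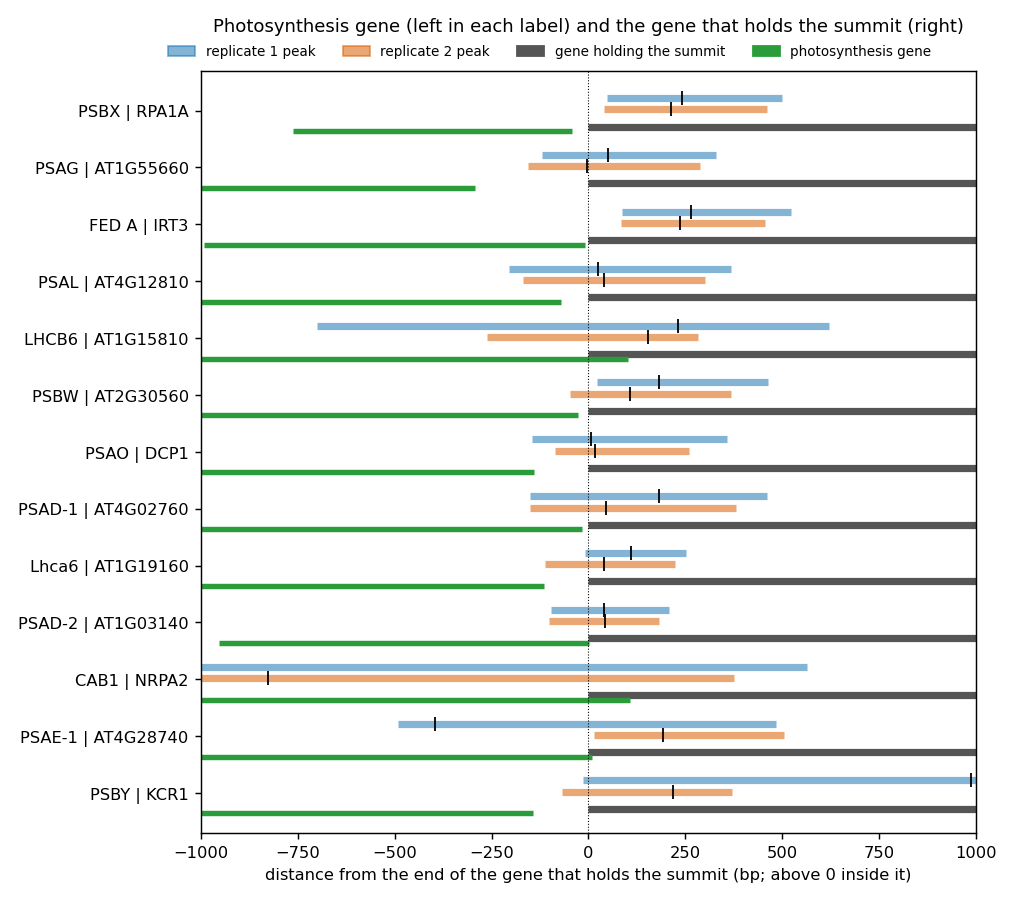
The 13 regions whose next coding gene beyond the end is a photosystem, electron transport or antenna gene, in order of IDR from the top (0.0382 at PSBX to 0.649), on an x axis of distance in bp from the end of the gene that holds the summit (cut off at 1000 bp on both sides, with any summit beyond not drawn). Green bars are the photosynthesis genes, grey bars the genes holding the matched summit, and blue and orange bars the peaks of replicates 1 and 2 with summits as ticks; at CAB1, PSAE-1 and PSBY at least 1 tick lies far from the gene end.

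Clock and light signalling genes held 3 summits among 25 genes (against 1.48% of all coding genes), with weak repeatability. They were PIF4 (1.54 and 2.60, IDR 0.435) and PIL6, also named PIF5 (1.40 and 1.64, IDR 0.649), bHLH factors that act under phytochrome, and the evening clock gene TOC1 (1.70 and 1.76, IDR 0.649). In none of these 3 did both replicates' own summits lie in the near-end class, and 1 of them lay within 150 bp of the end. B-box genes, zinc finger factors of light signalling and flowering, held 4 summits among 30 (13.3%). STO (BBX24) had 3.46 and 2.07 with an IDR of 0.0965, and BBX13 (2.76 and 1.43), COL4 (1.91 and 1.96) and COL5 (2.06 and 2.16) had IDRs of 0.219 or more. LZF1 (BBX22) lay 55 bp from a summit in NADK3, with 2.65 and 2.12 (IDR 0.0524). Counting any class within 1000 bp, 12 of 25 clock and light signalling genes and 12 of 30 B-box genes had a matched region. Over all coding genes this share was 7.09%.

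Of the lists put together after the genes had been seen, LNK genes held 2 summits among 4, the LNK3 and LNK4 regions above. Counting any class within 1000 bp, all 4 had a matched region, against 7.09% of all coding genes. For holding a summit of the near-end class, as counted for these lists, the share over all coding genes was 1.48%. Endoplasmic reticulum folding and turnover genes held 5 among 31 (16.1%). Beside CNX1 these were DER2.1, a derlin (3.33 and 2.02), PDIL2-3, a disulfide isomerase (1.92 and 2.18), Hrd1A, a ubiquitin ligase (1.99 and 1.67), and IRE1A, a sensor of unfolded proteins (1.75 and 1.40). Brassinosteroid signalling genes held 3 among 10: the receptor gene BRI1 (1.93 and 1.73), the kinase gene BIN2 (2.19 and 1.53) and the transcription factor gene BES1 (1.94 and 1.59). Chlorophyll biosynthesis genes held 3 among 23: GUN5 (2.22 and 2.41) and CHLI1 (1.43 and 1.68), subunits of magnesium chelatase, and GUN4, its activator (1.65 and 1.55). Apart from CNX1 and the LNK genes, none of these had an IDR below 0.120, the value at DER2.1. With both replicates' own summits required in the near-end class, the counts fell from 5 to 2 for the endoplasmic reticulum list, from 3 to 1 for chlorophyll biosynthesis and from 2 to 1 for LNK genes. With a limit of 150 bp, brassinosteroid genes fell from 3 to 1 and LNK genes from 2 to 1. These lists were made from what was seen, so their counts are not independent evidence.

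Other lists had fewer genes holding a summit. Among symbol classes, WRKY genes held 2 summits among 71 (WRKY7 and WRKY19), NAC genes 2 among 99 (NAC047 and NAC3) and Aux/IAA genes 1 among 32, SHY2, an auxin repressor (3.39 and 2.07, IDR 0.0639). Ribosomal protein genes held 0 of 61 but lay across the end in 3 (4.92%, against 0.773% of all coding genes): RPL23AA beside MTP11 (2.81 and 2.41), RPL34 beside AT1G69630 (2.42 and 1.92) and RPS13A beside GAE3 (1.72 and 1.80). Abscisic acid signalling (20 genes), abscisic acid metabolism (13), gibberellin (18), seed maturation and storage (19), housekeeping (17), Rubisco (5) and touch-induced genes (4) had 0 in either position. So did MYB (125), heat shock (27), ERF (25), CML (14) and JAZ (12) genes. This holds for the near-end class only. Some of these lists had matched regions of other classes within 1000 bp. Such a region lay by 4 of the 20 abscisic acid signalling genes and by 4 of the 125 MYB genes. Over all coding genes, 7.09% had a matched region of any class within 1000 bp. With 1.48% of all coding genes holding a summit, lists of this size were mostly too short to show a lower share.

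Each replicate's own list placed a somewhat higher share of peaks inside gene ends than the 22.4% of the matched regions. It was 2660 of 9811 nuclear peaks in replicate 1 (27.1%) and 847 of 3423 in replicate 2 (24.7%). Of the near-end peaks of replicate 2, 376 (44.4%) were overlapped by a peak of replicate 1, against 32.7% of those deeper inside genes, 67.3% of those up to 1000 bp outside and 87.0% of those farther out. Of the near-end peaks of replicate 1, 393 (14.8%) were overlapped by replicate 2, against 15.6% of those deeper inside genes, 810 of 4260 up to 1000 bp outside and 25.4% of those farther out. The near-end share was thus above the deep one in replicate 2 and below it in replicate 1. It was below the share of all nuclear peaks in both, 1814 of 3423 in replicate 2 and 1784 of 9811 in replicate 1. Peaks not overlapped by the other list lay inside gene ends in 28.2% of cases in replicate 1 and 29.3% in replicate 2.

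The place of the summit itself was less certain than these counts show. The table gives a summit for the matched region that need not be a summit of either peak, and at 99 of the 398 regions it lay over 100 bp from both called summits. The median distance between the 2 replicates' summits was 86.5 bp, against 66.0 bp over all matched regions. The replicate 1 summit lay outside genes at 73 of the regions and deeper inside at 52, and the replicate 2 summit lay outside at 35 and deeper inside at 75. At 213 (53.5%) both called summits also lay inside a gene within 300 bp of an end. These 213 regions had medians of 1.89 and 1.68 and held 15 of the 16 with an IDR of at most 0.05.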

How the data were processed

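Per the series' design text, peaks were called per induced replicate against the 1 control with MACS2 2.2.7.1. bcl2fastq 2.20, Bowtie2 2.3.5.1, SAMtools 1.7 and TAIR10 are named in the submitters' processing notes; for duplicates and the IDR program the sources used here give no settings. The deposited peak lists give a score, a fold enrichment ratio and −log10 p and q values; the authors' deposited IDR table gives a scaled score, −log10 q and −log10 IDR.

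Summits were classed against coding gene spans of RefSeq TAIR10.1, used only for names and neighbourhood, with no strand or exons. Folds were taken from the peak overlapping each region with the same −log10 q (within 0.001). The interval given for the share of members is exact binomial and treats peaks as independent. No test between groups was run, because 2 replicates against 1 shared control give no test of the condition and regions are not replicates. The files used here also give no value of the control itself, only folds over it. Motifs and gene starts were planned and not run because no sequence or strand was used. The members, the 10 gene lists, 10 symbol classes and 4 added lists were chosen with earlier results of these data known; the 4 after seeing the genes.

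By rule, genes were named for the 10 regions of lowest IDR and the 10 of highest mean log2 fold, up to 4 genes per list, those at the 300 bp limit, 3 in overlapping spans and the 3 most unequal each way. Beyond that rule, the remaining regions with an IDR of at most 0.05, the genes across the end, the fifth gene of the endoplasmic reticulum list, genes with a region at each end and SDR4 were named after their values were seen. Location classes were tested on simulated data. Tables were handled in pandas 2.3.3 and numpy 2.4.6 under Python 3.11.15, the interval came from scipy 1.17.1 and plots from matplotlib 3.10.9.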

Additional observations from a re-analysis of the deposited data

How the results depend on the processing

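The 398 regions became 211 with a distance limit of 150 bp and 213 when both own summits had to lie in the class, an alternative chosen after seeing the data; with 500 bp, other summits or non-coding genes added the count ran from 362 to 504. The median fold of 1.74 was 1.61 to 1.78 with 1 replicate left out and 2.12 at −log10 q of at least 5 in both replicates, a stricter choice of regions. Regions with an IDR of at most 0.05 were 16; they were 4 at 0.01, 31 at 0.1 and 8 within 150 bp. The share at lower-coordinate ends, 50.3%, was 18.8% at an IDR of at most 0.05 and 40.6% at −log10 q of at least 5; the cause was not tested. The share near gene ends was 22.4% of matched regions. Over each replicate's whole own list, matched or not and at its own summits, it was 24.7% to 27.1%. Among own peaks overlapped by the other list it was 22.0% in replicate 1 and 20.7% in replicate 2. A reciprocal overlap of at least 50% left 228 of 398. The first 10 lists together had 6 genes holding a summit, 3 within 150 bp and 3 when both own summits had to lie in the class; 13 lay across the end, 7 within 150 bp. No paired analysis was possible because both replicates share 1 control. Depth is unknown, which leaves the folds without a counting error.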

Other observations

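A pair of genes had a region at each end. At IWS1, a transcription elongation factor gene, the regions had folds of 1.37 and 1.44 at one end and 1.83 and 1.48 at the other. At CYP705A5, a cytochrome P450 gene, they had 1.87 and 1.39, and 1.96 and 1.53. At 13 regions the summit also lay in the span of a non-coding gene, with medians of 1.92 and 1.55. The gene named SDR4 in RefSeq, AT3G29250, held a region with 1.39 and 1.55; it encodes a short-chain dehydrogenase and only shares its name with the rice factor. The 10 regions in genes with a span of at most 600 bp, where any summit is near an end, had medians of 2.01 and 1.61.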
